A study of Rattus norvegicus with 18 samples.

Results

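The genes described here are 19 rat heart genes whose transcripts were more abundant in the hypertensive strain given NS than in the normotensive strain and lower again after QDG treatment. They were chosen out of 17397 genes kept for testing, from 37262 listed. Transcript level is given as FPKM, a fragment count scaled to gene length and library size, which can be compared between genes because of the scaling to length. The unit was inferred from the values, as the file headers name none. A gene was kept when 6 or more of the 18 libraries reached 1 FPKM. Differences between groups were taken on log2(FPKM + 1), where 1 unit is close to a doubling of FPKM for a well expressed gene and more than a doubling for a low one. Members were chosen by these same values: a member had an SHR mean above the WKY mean by more than 0.2 and less than 1, and all 6 QDG values below all 6 SHR values, an order found in 0.316% of the genes kept. Of the 19 members, 15 have Ensembl rat gene identifiers and 4 come from NONCODE, which catalogues noncoding transcripts. Among the genes kept, 12396 were Ensembl and 5001 NONCODE.

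The libraries were made from rRNA-depleted heart RNA of 3 groups of rats, with 6 libraries each. WKY is the Wistar-Kyoto strain, labelled normal. SHR is the spontaneously hypertensive rat, labelled hypertension and given NS. QDG is the same hypertensive strain given QDG. The labels expand neither NS nor QDG and do not say that WKY rats received NS, so NS and strain cannot be told apart in SHR against WKY. The sources used here give no age, sex, dose, duration or part of the heart. The 6 libraries of a group are not said to come from separate animals, so every spread and p-value below is that between libraries. Summed FPKM ranged from 598626 to 676288 per library, and absolute depth is unknown.

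SHR rats develop high blood pressure without any intervention, and their left ventricle thickens and stiffens with age. WKY is the strain usually set beside them, but the strains are separately inbred, so their hearts can differ in expression for inherited reasons unrelated to pressure. In RNA from whole tissue, a lower level can mean fewer cells of a type or less RNA per cell, and these cannot be told apart. Identifiers stand without gene names in the files, and 0 of the 37262 identifiers matched the reference gene table. For that reason 6 members are given by identifier and the others by their rank, rank 1 being the largest difference between SHR and QDG. The 27 gene lists prepared for heart tissue, marker genes of heart cell types included, could not be applied, so the labelled tissue was not checked against its markers.

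The rule itself fixes that members are high in SHR, so the values that follow describe them and are no test. Over the 19 members the mean SHR level was 1.16 to 1.96 times the WKY level (median 1.39) and 1.10 to 2.09 times the QDG level (median 1.36). On the log2(FPKM + 1) scale the median SHR minus WKY difference was 0.41 and the median QDG minus SHR difference was -0.40, beside -0.01 and 0.02 over all genes kept. In SHR against WKY, 15 members passed an adjusted p of 0.05 as higher, where 12.2% of all genes kept did. In QDG against SHR, 6 members passed as lower, where 0.0862% of all genes kept did, and 18 had an unadjusted p under 0.05 as lower, where 3.4% of all genes kept did. The 6 that passed in QDG against SHR were 5 Ensembl genes and 1 NONCODE gene, and all 6 also passed in SHR against WKY. Both comparisons share the SHR libraries. The count of 6 in QDG against SHR became 12 after median centring, 11 after quantile normalization and 10 with sample weights. It fell to 5 without the intensity trend in limma, 5 without the filter and 4 with a replicate block.

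**Figure D1:**
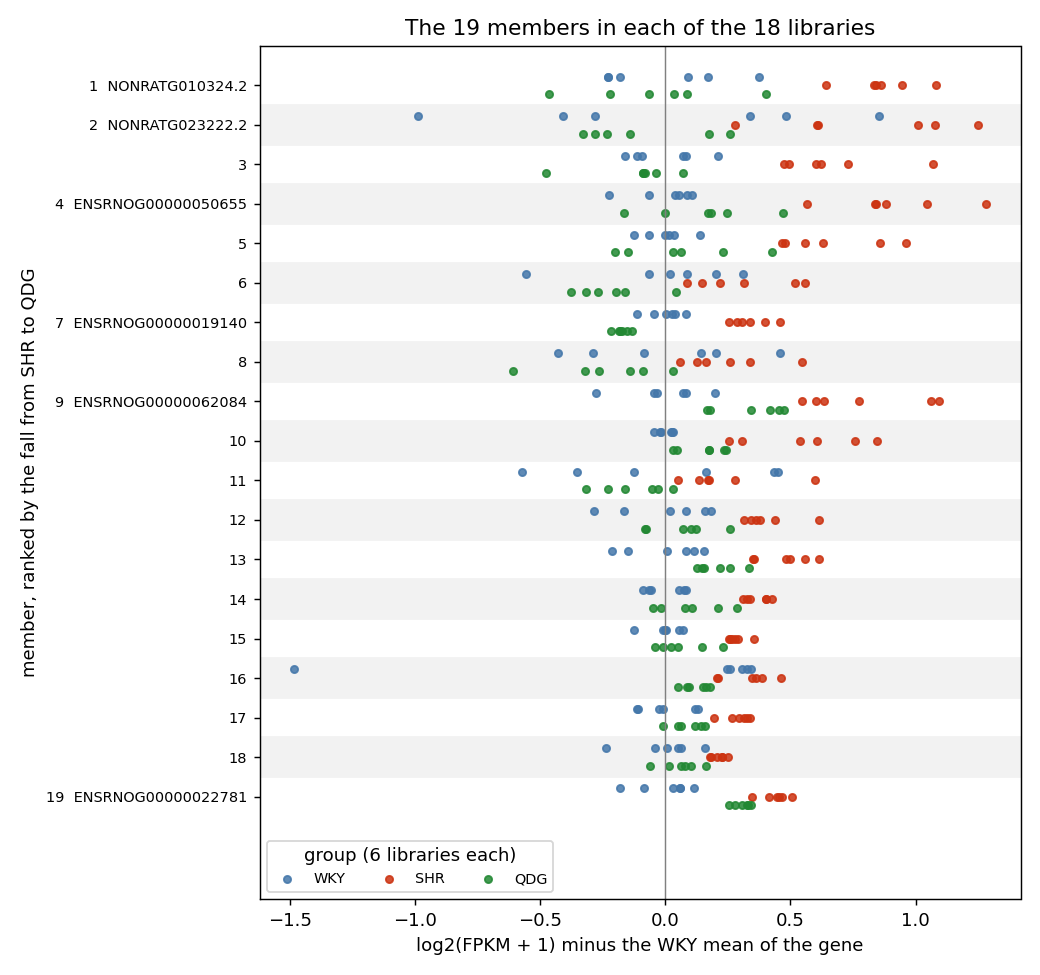
Each row is a member, ranked by the difference between SHR and QDG, and each point is a library (6 per group). The x axis is log2(FPKM + 1) minus the gene's WKY mean. In every row the red SHR points lie to the right of the green QDG points, as the rule requires. Blue WKY and green QDG points overlap in 16 of 19 rows, an overlap that most genes kept also show.

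The member of largest difference between SHR and QDG was NONRATG010324.2, a noncoding gene of the NONCODE catalogue. Its lowest, median and highest FPKM were 11.7, 13.7 and 16.2 in SHR, 4.88, 7.04 and 9.73 in QDG, and 5.93, 6.91 and 9.53 in WKY. The QDG and WKY libraries thus covered nearly the same range, and all SHR libraries lay above both. The log2 difference was 0.87 (SE 0.13) for SHR minus WKY and -0.91 (SE 0.13) for QDG minus SHR. Between QDG and WKY the difference was -0.04 (95% confidence interval -0.30 to 0.23, limma adjusted p = 0.881).

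The Ensembl gene ENSRNOG00000050655 had the largest difference between the strains. Its lowest, median and highest FPKM were 19.4, 24.1 and 32.5 in SHR, 11.3, 14.6 and 18.1 in QDG, and 10.8, 13.3 and 13.9 in WKY. QDG libraries spread above the WKY range, with 2 of 6 inside it. The log2 difference was 0.91 (SE 0.11) for SHR minus WKY and -0.76 (SE 0.11) for QDG minus SHR, and QDG minus WKY was 0.15 (95% confidence interval -0.07 to 0.38, limma adjusted p = 0.368).

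NONRATG023222.2 had the second largest difference between SHR and QDG and the largest SE of the members on the log2(FPKM + 1) scale, 0.26. It was at 9.19 ± 2.50 FPKM in SHR, 4.40 ± 0.967 in QDG and 5.20 ± 2.74 in WKY (SD, n = 6 each). The WKY libraries ran from 1.86 to 9.27 FPKM and overlapped those of SHR, which ran from 5.88 to 12.5. Its gap to the rule was narrow, with the highest QDG library at 5.80 FPKM just under the lowest SHR library. It passed in SHR against WKY, a call lost in 7 of 28 alternative settings, and did not pass in QDG against SHR. QDG minus WKY was -0.09 (95% confidence interval -0.63 to 0.45, limma adjusted p = 0.854).

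Members differed in how far apart SHR and QDG stood. For 3 members the lowest SHR library exceeded the highest QDG library by at least 0.2 on the log2(FPKM + 1) scale, for 3 by 0.05 to 0.2, and for 13 by less than 0.05. The widest gap, 0.40, was in the Ensembl gene of rank 3, at 21.0 to 32.2 FPKM in SHR and 10.4 to 15.7 in QDG, with 13.2 to 17.3 in WKY. The smallest gap was 0.0062. Just outside the rule, 5 genes inside the strain limits missed by -0.0001 to -0.0054, and 19 genes missed because of a single pair of libraries in the wrong order. At the lower strain limit the nearest members had SHR minus WKY differences of 0.21 and 0.24, and the nearest genes outside had 0.199 and 0.186. At the upper limit the nearest members had 0.91 and 0.87, and no gene with all QDG below all SHR reached 1.

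The description as raised in the hypertensive strain fits some members better than others. All 6 SHR libraries lay above all 6 WKY libraries in 14 members, where 6.41% of all genes kept showed that order. In the other 5 the strains overlapped, and 4 of those 5 are the members that did not pass in SHR against WKY. The clearest case was the NONCODE gene of rank 16. Its SHR libraries were at 2.54 to 3.22 FPKM and 5 WKY libraries at 2.63 to 2.88, while WKY replicate 4 was at 0.0971. Without that library it was no longer a member. The Ensembl gene of rank 6 also dropped out without WKY replicate 4, that of rank 8 without WKY replicate 1, WKY replicate 5 or SHR replicate 2, that of rank 11 without WKY replicate 1, WKY replicate 3 or SHR replicate 6, and that of rank 18 without WKY replicate 5. The other 14 met the rule whichever library was left out, although leaving out a QDG library cannot remove a member.

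QDG against WKY is the comparison that the rule did not set directly, although it used libraries of both groups and required low QDG values. In it, 3 of the 19 members passed an adjusted p of 0.05, where 20.9% of all genes kept did. QDG was higher in 2 of the 3, where 11.7% of all genes kept passed as higher, and lower in 1, where 9.2% passed as lower. Among all 2622 genes inside the strain limits, 53.7% passed, 1405 of them higher in QDG and 2 lower. The median QDG minus WKY difference was 0.07 over the members, 0.28 over the genes inside the strain limits and 0.01 over all genes kept. For 17 members the 95% confidence interval lay within 1.5-fold in either direction on this scale. The 2 exceptions were NONRATG023222.2 and the NONCODE gene of rank 16, with intervals of -0.63 to 0.45 and -0.36 to 0.60. The intervals take no account of the choice of members by WKY and QDG values. For that reason they cannot exclude a larger distance from WKY.

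**Figure D2:**
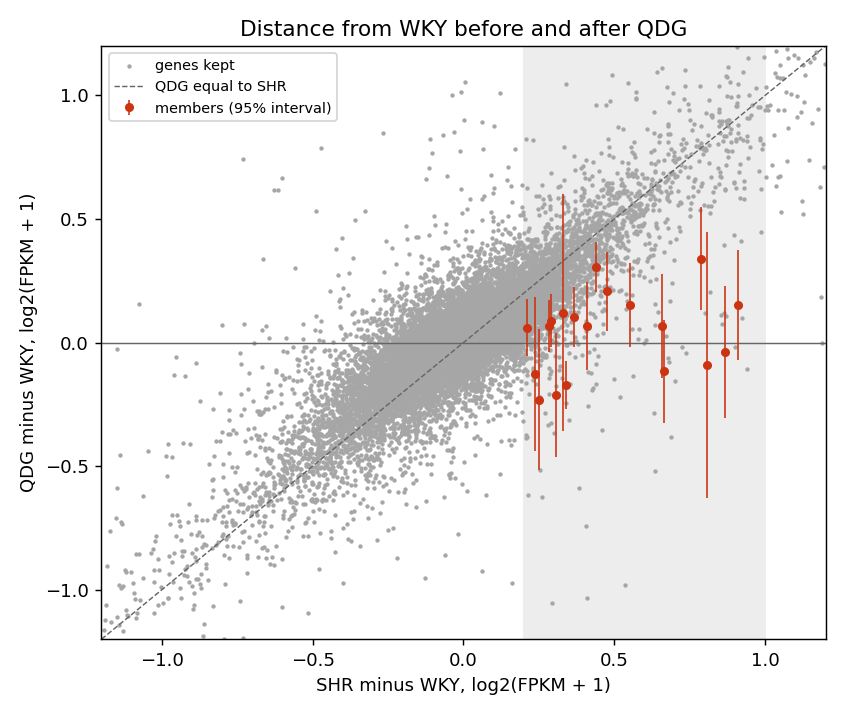
Each grey point is a gene kept, with SHR minus WKY on the x axis and QDG minus WKY on the y axis, both on log2(FPKM + 1), and genes beyond 1.2 on either axis are not drawn. Red points are the 19 members with 95% confidence intervals, the shaded band holds the strain limits 0.2 and 1, and the members lie below the dashed line of equal SHR and QDG and around the horizontal line of equal QDG and WKY.

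ENSRNOG00000062084 and ENSRNOG00000022781 remained above WKY after treatment. Neither passed in QDG against SHR (limma adjusted p = 0.0683 and 0.317). Over the 28 alternative settings the first passed there in 4 and the second in 0. ENSRNOG00000062084 had a lowest, median and highest FPKM of 8.52, 10.7 and 12.3 in WKY, 15.9, 17.8 and 23.7 in SHR, and 11.96, 14.05 and 15.03 in QDG. The QDG libraries stood between the strains, with 2 of 6 inside the WKY range. QDG minus WKY was 0.34 (SE 0.10, 95% confidence interval 0.13 to 0.55, limma adjusted p = 0.0192).

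ENSRNOG00000022781 showed the smallest difference between SHR and QDG of all members, -0.13 (SE 0.05). Its FPKM were 9.55, 11.3 and 11.97 in WKY, 14.23, 15.36 and 16.004 in SHR, and 13.3, 13.9 and 14.2 in QDG (lowest, median and highest). The 3 groups did not overlap at all, and QDG stood nearer to SHR than to WKY. QDG minus WKY was 0.31 (SE 0.05, 95% confidence interval 0.20 to 0.41, limma adjusted p = 0.000115). After median centring or quantile normalization of the libraries its SHR and QDG values overlapped and it was no longer a member.

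ENSRNOG00000019140 went past WKY. Its lowest, median and highest FPKM were 5.02, 5.58 and 5.89 in WKY, 6.76, 7.14 and 7.95 in SHR, and 4.60, 4.76 and 4.94 in QDG. All QDG libraries lay below all WKY libraries, an order that 4.59% of all genes kept showed, and the QDG values were close together at 4.77 ± 0.115 (SD, n = 6). QDG minus WKY was -0.17 (SE 0.05, 95% confidence interval -0.27 to -0.07, limma adjusted p = 0.0114). The calls of these 3 genes in QDG against WKY held in all 28 alternative settings run, with limma adjusted p from 0.00615 to 0.0334 for ENSRNOG00000019140, from 0.00994 to 0.0447 for ENSRNOG00000062084 and from 3.9e-05 to 0.00126 for ENSRNOG00000022781.

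**Figure D3:**
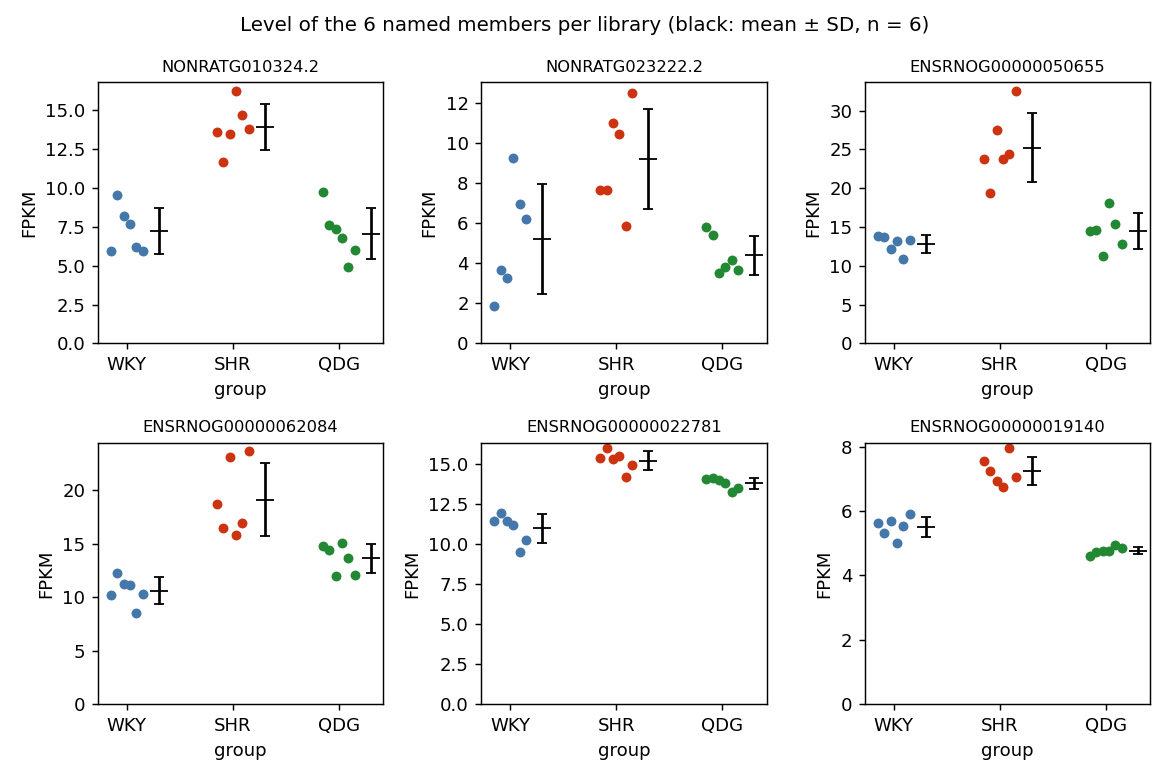
FPKM of the 6 members given by identifier, on axes that start at 0, with a point per library in the order of replicate number and black bars for mean ± SD (n = 6). QDG libraries lie in or near the WKY range in NONRATG010324.2, and inside a wide WKY range (1.86 to 9.27 FPKM) in NONRATG023222.2. The QDG mean lies between the strains in ENSRNOG00000062084 and ENSRNOG00000022781, and all QDG libraries lie below WKY in ENSRNOG00000019140.

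The other 16 members did not pass in QDG against WKY. Their differences ran from -0.23 to 0.21, with the lowest limma adjusted p at 0.0609. Without WKY replicate 4, 5 members passed in place of 3. QDG and WKY libraries also overlapped in 16 members, but not the same 16. ENSRNOG00000062084 passed and overlapped, while the Ensembl gene of rank 10 neither passed nor overlapped. Such overlap was also common over all genes kept, where 5.83% had all QDG above all WKY and 4.59% all QDG below. The QDG mean lay inside the range of the WKY libraries in 12 members, a share not computed over all genes kept. Neither count by itself shows a return to the WKY level. Of all 19, 12 had a QDG mean above the WKY mean and 7 below it. All QDG libraries lay above all WKY libraries in 2 members, where 5.83% of all genes kept showed that order, and below them in 1, ENSRNOG00000019140.

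Members were moderately expressed. Their mean level over all libraries ran from 1.52 to 28.1 FPKM with a median of 9.39, against a median of 5.20 over all genes kept, and 15 of 19 lay above that median. The 4 NONCODE members ranged from 1.52 to 9.39 FPKM and the 15 Ensembl members from 1.93 to 28.1. In 16 members every library reached 1 FPKM. Together they made up 0.0286% to 0.0333% of summed FPKM in WKY libraries, 0.0414% to 0.0512% in SHR and 0.0272% to 0.0349% in QDG.

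The groups were also compared library by library, as a description, since the rule set SHR above WKY on average and above QDG. The median over the 19 members of the distance from the WKY mean was 0.34 to 0.46 in SHR libraries, -0.06 to 0.16 in QDG libraries and -0.11 to 0.09 in WKY libraries. QDG replicate 1 was the highest QDG library in 7 members and QDG replicate 4 in 5. SHR replicate 2 was the lowest SHR library in 6, SHR replicate 4 in 5, and SHR replicate 3 in 0. QDG replicate 4 also had the highest median over all genes kept, 2.71 on the log2(FPKM + 1) scale, where the other 17 libraries were at 2.55 to 2.68. Without it 36 genes met the rule, all 19 members among them, as leaving out a QDG library cannot remove a member. After median centring 52 genes met the rule and after quantile normalization 38, and 17 of the 19 members were among them in both. In each of the 3 scalings all 19 members had SHR above WKY and QDG below SHR on average. The rule had set both directions before rescaling, so this is no test.

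Because both conditions of the rule use the SHR libraries, a value high in SHR enters both differences. The rule was therefore also applied with 3 of the 6 SHR libraries, and the difference was read in the other 3. With replicates 1 to 3 the rule found 172 genes, and their median QDG minus SHR difference went from -0.26 in those libraries to -0.09 in replicates 4 to 6. With replicates 4 to 6 it found 93 genes, and the median went from -0.30 to -0.16. Odd replicates gave 111 genes with -0.29 and -0.17, and even replicates 90 genes with -0.30 and -0.20. The difference was thus smaller in the libraries not used, in all 4 assignments. These reuse the same 6 libraries, since each set of 3 is read against its complement in both directions.

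The sign in the unused libraries was read beside that of genes at large. The QDG mean was below that of the unused SHR libraries in 81.7% to 95.6% of the genes so found, against 38.3% to 50.2% of all genes kept and 49.4% to 64.5% of genes inside the strain limits. All 6 QDG libraries lay below all 3 unused SHR libraries in 10.5% to 23.3% of them, against 1.14% to 2.08% of all genes kept. That order in both sets of 3 is the order the rule asks of all 6 SHR libraries. Of the 18, 19, 19 and 21 genes showing it, 16, 17, 18 and 19 were members, so this share mostly restates the list. The same members are counted in the share with a lower QDG mean, where the rule fixed their sign. The SHR mean of the unused libraries was above WKY in 86.0% to 93.3% of the genes so found, against 91.5% to 95.7% of genes inside the strain limits and 44.7% to 52.2% of all genes kept. WKY and QDG libraries were the same in choosing and in reading, so these shares describe the libraries at hand and are no test. Their median QDG minus WKY difference was 0.05 to 0.09.

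A further reading kept the conditions apart, with the strain limits applied in 3 SHR libraries and QDG set against the other 3. It found 46, 88, 61 and 80 genes, with replicates 1 to 3, 4 to 6, odd and even as the strain set. These were 1.495%, 3.36%, 1.95% and 3.22% of the genes inside the strain limits, where 1.14%, 2.08%, 1.17% and 1.45% of all genes kept had all QDG below those 3 SHR libraries. The median QDG minus WKY difference of the genes found this way was 0.11 to 0.18, above that of the members.

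**Figure D4:**
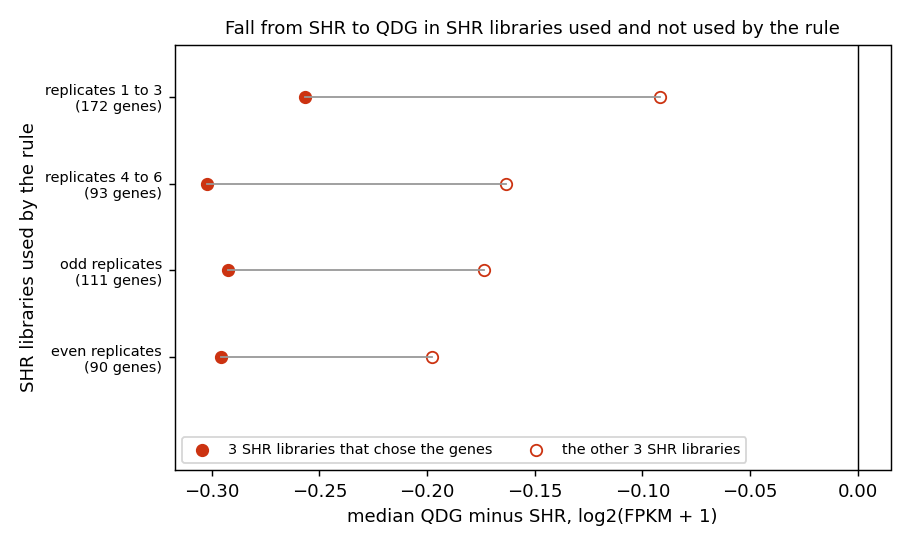
Each row is a choice of 3 SHR libraries for the rule, with the number of genes found. The x axis is the median QDG minus SHR difference in the 3 libraries that chose the genes (filled) and in the other 3 (open), and every open point lies nearer to 0 and still below it. The genes found include members, for which the rule set QDG below all SHR libraries.

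Inside the groups, members did not move as a block. The deviations of each library from its group mean were correlated between members, a measure that the rule did not use. Over 171 pairs and 18 libraries the median Pearson correlation was 0.11, against 0.09 over all pairs of genes kept, and 5.26% of member pairs exceeded 0.6, against 4.13% of all pairs. The points of a pair share a library and its scaling.

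Of the 9 pairs above 0.6, the 3 highest are given as a description. NONRATG023222.2 and the Ensembl gene of rank 11 correlated at 0.82 (0.72 to 0.88 with each library left out), but at 0.97 in WKY, 0.53 in SHR and 0.10 in QDG alone. NONRATG010324.2 and the Ensembl gene of rank 14 correlated at 0.81 (0.73 to 0.86), with 0.90 in WKY, 0.33 in SHR and 0.86 in QDG. ENSRNOG00000050655 and ENSRNOG00000062084 correlated at 0.78 (0.72 to 0.81), with 0.69, 0.83 and 0.86 in WKY, SHR and QDG. Both correlated with the Ensembl gene of rank 10, at 0.66 and 0.64. All 3 genes had their highest SHR levels in replicates 3 and 6, as did NONRATG023222.2 and the Ensembl gene of rank 5. The share of all genes kept with that order was not computed, so it cannot be called particular to members. The sources used here do not say whether counting used strand, so reads of overlapping genes could not be told apart, and whether these pairs overlap in the genome was not tested.

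**Figure D5:**
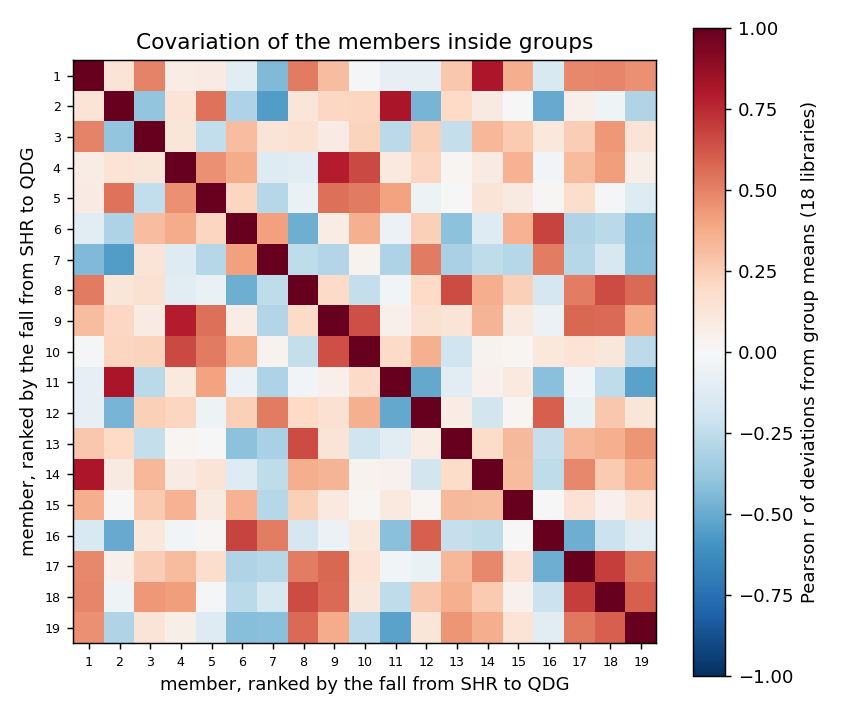
Pearson correlation between the 19 members (ranked by the difference between SHR and QDG on both axes) of deviations from group means over 18 libraries, from blue (negative) to red (positive). Most cells are pale, the median over 171 pairs is 0.11, and 9 pairs exceed 0.6, of which the 3 darkest (0.82, 0.81 and 0.78) are those of ranks 2 and 11, 1 and 14, and 4 and 9.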

How the data were processed

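Expression was measured in 18 rat heart libraries, 6 each of WKY, SHR and QDG-treated SHR, grouped by sample title. The deposited values were read as FPKM, that is, as already scaled to gene length and library size. The file headers name no unit. Values with decimals and library sums that differ point to FPKM. A TPM table with genes removed cannot be told apart from it. Per the labels' protocols, RNA was rRNA-depleted before library construction. The submitters' processing notes name limma. The aligner, build, annotation and strand setting: not given in the sources used here.

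Values were tested as log2(FPKM + 1) over 17397 genes with limma 3.58.1 in R 4.3.3 (intensity trend, robust moderation, 3 group means, two-sided, Benjamini-Hochberg over all genes kept, threshold 0.05), checked on simulated data. Other values were computed in Python 3.11.15. The 6 identifiers printed are the 2 members of largest SHR minus WKY difference, the 2 of largest SHR to QDG difference, and those passing in QDG against WKY. Where symbols could not be matched, at most 2 identifiers per direction and comparison were allowed. The members and gene lists were chosen with earlier results of these data known. Alternatives were scaling, pseudocount, filter, limma settings, a replicate block, SHR libraries split into sets of 3 and each library left out. The reading of each set of 3 in the other 3, and median centring of the correlations, were added after seeing the data. No sequence is shown, as no identifier matched the reference tables.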

Additional observations from a re-analysis of the deposited data

Results flagged for a closer look

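In 60 groups of 6 values (19 members and the median over members, in 3 groups), 4 single libraries stood apart from the other 5 of their group. Chance flags about 1 group in 20, so 4 in 60 is near the chance rate. The NONCODE member of rank 16 was at 0.0971 FPKM in WKY replicate 4 and at 2.63 to 2.88 in the other WKY libraries. The Ensembl member of rank 3 had 10.4 FPKM in QDG replicate 5, against 13.9 to 15.7 in its other QDG libraries. The Ensembl member of rank 11 was at 20.3 FPKM in SHR replicate 6 and at 13.55 to 16.02 in the other SHR libraries. The Ensembl member of rank 15 was at 9.30 FPKM in SHR replicate 4 and at 8.61 to 8.85 in the others.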

How the results depend on the processing

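The number of genes meeting the rule went from 19 to 52 with median centring and 38 with quantile normalization, holding 17 of the 19 in both, and the cause was not tested. Leaving out single libraries gave 17 to 42 genes, and 17 to 23 where the library was of WKY. It gave 42 without QDG replicate 1, 41 without SHR replicate 5, 36 without SHR replicate 6 or QDG replicate 4, 32 without SHR replicate 3 or 4 and 31 without QDG replicate 2. With the strain condition in 3 SHR libraries and QDG set against the other 3, the counts were 46, 88, 61 and 80 (replicates 1 to 3, 4 to 6, odd and even), holding 16, 17, 18 and 19 of the 19. With both conditions in 3 libraries they were 172, 93, 111 and 90. By the rule a member has all QDG below any 3 SHR libraries, so only the strain limits could remove it in these readings. With fewer SHR or QDG libraries, fewer values have to keep the order. A filter at 5 FPKM left 15 genes. Members passing in QDG against SHR went from 6 to 12 with median centring, 11 with quantile normalization and 10 with sample weights, all with the same 6 among them, and to 5 to 8 with libraries left out. Members passing in SHR against WKY were 15, and 14 to 16 with libraries left out. Members passing in QDG against WKY were 3, and 3 to 5 with libraries left out. The median correlation between members ran from 0.08 to 0.12 with libraries left out. The sign of QDG minus WKY, near 0, turned for NONRATG010324.2 without WKY replicate 2 (0.037) and without QDG replicate 5 (0.048), in a range of -0.13 to 0.048 with libraries left out. It also turned for NONRATG023222.2 without WKY replicate 4 (0.080) and WKY replicate 5 (0.0055), in a range of -0.29 to 0.080. Same-numbered libraries of different groups correlated at -0.06 to 0.19, and the number shared was the best match for 5 of 18, so the numbers were not taken as pairs. With a replicate block 4, 15 and 3 members passed in QDG against SHR, SHR against WKY and QDG against WKY. Depth is unknown, so precision rests on the spread between libraries.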
